A study of Mus musculus with 8 samples.

Results

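Adipose tissue of obese sgp130Fc transgenic mice was compared with that of obese wild-type (WT) mice on Illumina bead arrays. The 5 arrays compared, 3 sgp130Fc and 2 WT, were chosen by their titles out of 8 in all. The sgp130Fc mice were 26 weeks old and the WT mice 24 weeks old. IL6 knock-out mice (IL6_KO, 25 weeks, 3 arrays) were measured beside them, helped to set the spread in the statistical model, and are given where a second contrast bears on a gene. Mice of every group had a C57Bl6 background, were obese on a high-fat diet and had fasted for 5 h. The labels used here give neither the promoter that drives the transgene nor the fat depot, the sex or the hour of collection. Each group has 1 age, so age and genotype cannot be told apart. The samples are numbered without being tied to separate animals, so the p-values rest on a spread that may be technical.

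Interleukin-6 (IL-6) reaches cells by more than 1 route. In classic signalling it binds its receptor IL-6R on hepatocytes and some leukocytes, and the complex engages the signal transducer gp130. In trans-signalling IL-6 binds a soluble IL-6R, which is shed from cells by proteases such as ADAM17, and the complex acts on any cell with gp130. Both routes activate STAT3 and induce its feedback inhibitor SOCS3. The sgp130Fc protein is a designed decoy: soluble gp130 joined to an antibody Fc stretch, which takes up the complex of IL-6 with soluble IL-6R. In obese fat, trans-signalling is known for its part in bringing in macrophages.

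Values are normalized log2 intensities, so a difference of 1 is a factor of 2 (fold change). Probes above background (detection p under 0.05) on at least 2 of the 8 arrays were tested, 14141 probes for 9803 genes, and "passed" means a Benjamini-Hochberg adjusted p under 0.05 over all of them in limma. Median raw intensity lay between 109.1 and 145 on the 8 arrays and was lowest on sgp130Fc replicates 3 (109.1) and 2 (119.7). Correlations across probes were 0.979 to 0.991 within sgp130Fc, 0.974 within WT and 0.963 to 0.981 between the groups. IL6_KO replicate 2 stood apart, with a mean correlation of 0.944 with the other arrays. With so few arrays precision was limited, and the standard error of the difference had a median of 0.21 over probes. The samples bore the marks of white fat. Adipoq, which encodes adiponectin, lay at 13.39, 13.34 and 13.43 on the sgp130Fc arrays and at 13.63 and 13.62 on the WT arrays. Lep, which encodes leptin, lay at 14.21, 14.18 and 14.24 on the sgp130Fc arrays and at 14.34 and 14.22 on the WT arrays. Ucp1, the uncoupling protein of brown fat, was not above background on any of these 5 arrays.

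In sgp130Fc fat 12 genes differed from WT, 6 higher and 6 lower. The higher genes were Chil1, Itgad, Ctse, Il13ra2, Per2 and Kansl1l, and the lower ones Mcm6, Gdpd3, Gbp2b, Cd163l1, Timmdc1 and Dusp4. They are 0.122% of the genes tested, 0.0612% in each direction. By probes the count was 13 (0.0919%), with 7 higher (0.0495%) and 6 lower (0.0424%), Per2 having 2. At an unadjusted p under 0.05 there were 1163 probes, 615 higher and 548 lower. The count hung on single arrays. The 7 higher probes became 1 without sgp130Fc replicate 2, 1 without sgp130Fc replicate 3 and 4 without WT replicate 2, and they became 12 without WT replicate 1 and 13 without IL6_KO replicate 2. The 6 lower probes became 3, 2 and 2 without sgp130Fc replicates 1, 2 and 3, and 3 without IL6_KO replicate 1.

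**Figure D1:**
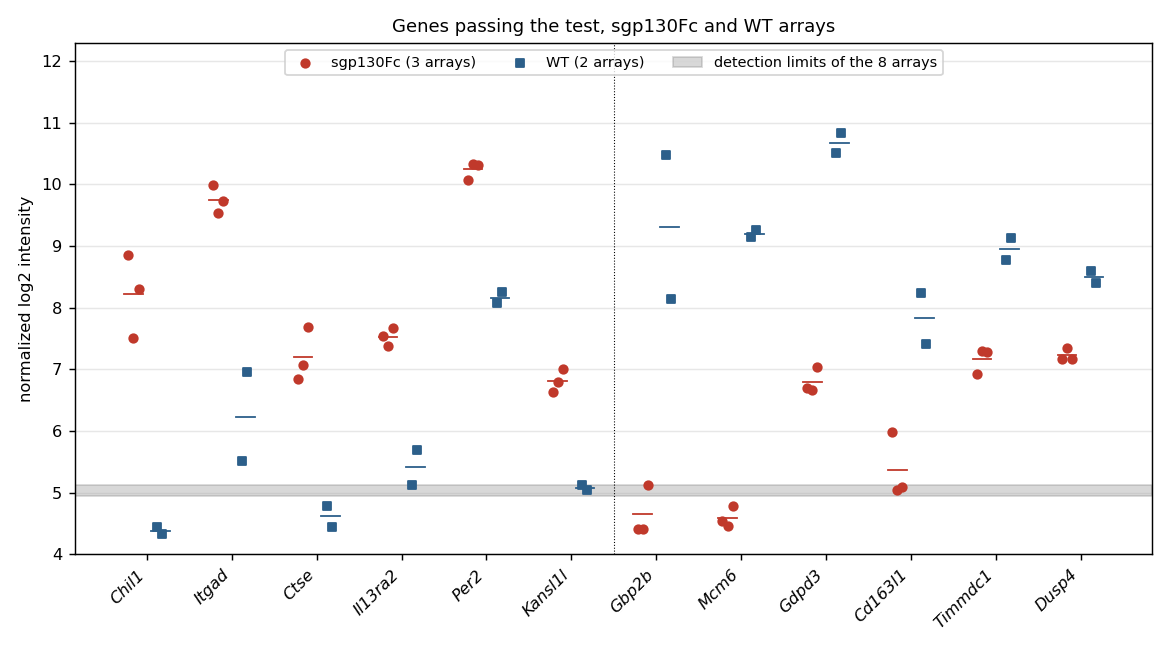
Normalized log2 intensity (y axis) of the 12 genes that passed, by gene (x axis), with 6 higher genes left of the dotted line and 6 lower genes right of it. Red circles are the 3 sgp130Fc arrays, blue squares the 2 WT arrays, short lines the group means, and the grey band spans the detection limits of the 8 arrays; in every gene the groups do not overlap, and the WT squares of Gbp2b are the farthest apart, at 10.48 and 8.15.

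Of the higher genes, 3 have products known from myeloid cells. Chil1 encodes a chitinase-like lectin of macrophages and neutrophils. It lay at 8.85, 7.51 and 8.31 on the sgp130Fc arrays and at 4.44 and 4.33, below background, on the WT arrays. That is at least 9.05-fold higher, counted against the detection limit (adjusted p = 0.00621). The IL6_KO arrays, at 4.65, 5.06 and 4.66, were below background too, and sgp130Fc differed from them as well (adjusted p = 0.00156; this contrast shares the sgp130Fc arrays with the first and called 177 of 14141 probes, 1.25%). Against WT, Chil1 did not pass without sgp130Fc replicate 3 (fitted log2 difference 3.79, adjusted p = 0.0593) or without WT replicate 2 (3.78, adjusted p = 0.0522).

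Ctse encodes cathepsin E, an aspartic protease of endosomes. It lay at 6.84, 7.07 and 7.69 in sgp130Fc and at 4.79 and 4.45, below background, in WT, at least 4.46-fold higher (adjusted p = 0.00902). All IL6_KO arrays lay below background as well, between 4.40 and 4.54 (adjusted p = 0.000861 for sgp130Fc against IL6_KO). The call against WT was lost without sgp130Fc replicate 2 (2.65, adjusted p = 0.0597) and without WT replicate 2 (2.41, adjusted p = 0.0722).

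Itgad encodes CD11d, an integrin chain of tissue macrophages. Its values were 9.99, 9.53 and 9.73 in sgp130Fc, against 5.51 and 6.96 in WT, a log2 difference of 3.51 ± 0.47 (SE; adjusted p = 0.0413). A second Itgad probe had 9.85, 9.05 and 9.46 in sgp130Fc, against 4.98 and 6.81 in WT (3.56, adjusted p = 0.0615). Every sgp130Fc array lay above both WT arrays on these probes and on the third, dimmer one. The IL6_KO arrays, at 9.17, 7.96 and 9.20, lay above both WT arrays too (sgp130Fc minus IL6_KO 0.97, adjusted p = 0.274). Itgad did not pass without WT replicate 1, without IL6_KO replicate 1 or 3, or without any 1 of the sgp130Fc replicates (2.79 to 3.62, adjusted p = 0.0528 to 0.212).

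Il13ra2 encodes the decoy receptor of IL-13, a cytokine of type 2 immunity. It lay at 7.55, 7.38 and 7.67 in sgp130Fc and at 5.13 and 5.70 in WT (2.12 ± 0.28, SE; adjusted p = 0.0413). It was also higher than in IL6_KO, where the arrays lay at 5.69, 5.05 and 5.96 (1.97, adjusted p = 0.0111), a call lost without any 1 of the sgp130Fc replicates (1.90 to 2.04, adjusted p = 0.0538 to 0.077). Against WT the call was lost without any 1 of the sgp130Fc or WT replicates and without IL6_KO replicate 1 (1.83 to 2.41, adjusted p = 0.0751 to 0.212). Kansl1l, a relative of a chromatin complex subunit, lay at 6.64, 6.79 and 7.00 in sgp130Fc and at 5.13 and 5.04 in WT, where it was above background on 1 array (1.72, adjusted p = 0.0135). On the IL6_KO arrays it lay at 6.24, 6.55 and 6.60. Without sgp130Fc replicate 2 or 3 or either WT replicate Kansl1l did not pass (1.63 to 1.77, adjusted p = 0.0593 to 0.103).

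Among the lower genes, Mcm6 had the smallest p of all. Mcm6 encodes a subunit of the helicase that opens DNA for replication. Its probe ILMN_1217331 lay at 4.55, 4.46 and 4.78, below background, in sgp130Fc, against 9.15 and 9.26 in WT and 9.73, 9.85 and 9.41 in IL6_KO. The fall against WT was at least 17.7-fold (adjusted p = 2e-05) and passed with each of the 8 arrays left out. The other 2 Mcm6 probes differed from it. One lay at 7.44, 7.06 and 7.38 in sgp130Fc and at 7.65 and 8.12 in WT (-0.59, adjusted p = 0.582). The other lay at 8.09, 7.91 and 8.44 in sgp130Fc and at 7.88 and 8.24 in WT (0.09, adjusted p = 0.944), so the groups overlapped there. What sets the probes apart was not tested, since their sequences were not used here.

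Gdpd3, a lysophospholipase D of lipid turnover, fell 14.6-fold. It lay at 6.70, 6.67 and 7.04 in sgp130Fc and at 10.51 and 10.83 in WT (-3.87 ± 0.19, SE; adjusted p = 5.68e-05), and it passed with each array left out. IL6_KO had 6.81, 7.12 and 6.97, at the level of sgp130Fc. In Timmdc1, Gbp2b, Cd163l1, Dusp4, Kansl1l and Itgad all sgp130Fc and all IL6_KO arrays lay on the same side of both WT arrays. Being on the same side does not mean an equal level, and the share of all genes arranged so is not given here. Timmdc1, which helps assemble respiratory complex I, lay at 6.93, 7.30 and 7.29 in sgp130Fc and at 8.77 and 9.14 in WT (-1.78, adjusted p = 0.0213), with 6.64, 6.88 and 7.06 in IL6_KO. It did not pass without any 1 of the sgp130Fc replicates or without WT replicate 2 (-1.85 to -1.60, adjusted p = 0.0788 to 0.108). Both genotypes are read against the same 2 WT arrays, so these arrangements are not independent of each other.

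Gbp2b encodes an interferon-inducible GTPase, and its near-identical relatives make the assignment to 1 copy uncertain. It lay at 4.42, 4.41 and 5.12 in sgp130Fc, above background on 1 array, at 4.60, 4.55 and 4.68, below background, in IL6_KO, and at 10.48 and 8.15 in WT (-4.66 ± 0.55, SE; adjusted p = 0.0222). The WT arrays stood far apart, and the difference was -3.50 without WT replicate 1 and -5.83 without WT replicate 2. Each of these fits keeps 1 WT array, so the gap between the WT arrays no longer enters the spread. Gbp2b did not pass without any 1 of the sgp130Fc replicates or without IL6_KO replicate 1 (-4.90 to -4.54, adjusted p = 0.0621 to 0.154). Cd163l1, a scavenger receptor of resident macrophages and some T cells, lay at 5.98, 5.05 and 5.10 in sgp130Fc, above background on 2 arrays, at 5.95, 6.07 and 6.21 in IL6_KO, and at 8.24 and 7.42 in WT (-2.45, adjusted p = 0.0413). It kept its call with 1 array left out only for sgp130Fc replicate 1; without any other array it did not pass (-2.86 to -2.04, adjusted p = 0.0502 to 0.178). Dusp4, a phosphatase that switches off MAP kinases in the nucleus, lay at 7.17, 7.34 and 7.17 in sgp130Fc, at 8.10, 8.26 and 7.98 in IL6_KO, and at 8.60 and 8.41 in WT (-1.28, adjusted p = 0.0359). On the first probe sgp130Fc was lower than IL6_KO as well (-0.88, adjusted p = 0.0271). Leaving out any sgp130Fc replicate or IL6_KO replicate 1 or 2 ended that call (-0.94 to -0.81, adjusted p = 0.0592 to 0.142). Against WT a second Dusp4 probe lay lower too (-0.97, adjusted p = 0.366). Dusp4 passed with 1 array left out only for IL6_KO replicate 2; without any other array it did not pass (-1.38 to -1.19, adjusted p = 0.0514 to 0.212).

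Other ways of processing ended calls as well, and some added calls, which are given at the end. With quantile normalization and no background correction, Chil1 (1.89), Ctse (1.07), Kansl1l (0.67), Cd163l1 (-1.22) and Itgad (2.42) had an adjusted p of 0.0533 each and Gbp2b (-2.70) one of 0.159, so none of these passed. Il13ra2 (1.00, adjusted p = 0.0402) and Mcm6 (-2.55, adjusted p = 0.000182) passed there with smaller differences. With undetected probes kept, Per2, Timmdc1, Gbp2b, Cd163l1, Il13ra2 and Itgad did not pass (adjusted p = 0.0544 to 0.185). In a fit of the 5 sgp130Fc and WT arrays alone Gbp2b and Dusp4 (adjusted p = 0.0904 each) and Cd163l1 (adjusted p = 0.109) did not pass. Il13ra2 was lost with scaling to the 75th percentile (adjusted p = 0.06) and Itgad with detection required on all 8 arrays (adjusted p = 0.0727).

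The 18 genes next in order of p did not pass. On the probe with the smallest p of each the groups did not overlap. That follows largely from choosing by p, and it holds for 29.6% of all genes on their brightest probe. Some are receptors and chemokines of immune cells. Tnfrsf11a, which encodes the osteoclast and dendritic cell receptor RANK, lay at 7.72, 7.44 and 7.69 in sgp130Fc and at 5.78 and 5.99 in WT (1.74, adjusted p = 0.0737), and passed without IL6_KO replicate 2 (adjusted p = 0.028) or 3 (adjusted p = 0.0259). Cxcr4, the receptor of CXCL12, lay at 8.97, 8.81 and 9.24 in sgp130Fc and at 7.82 and 7.38 in WT (1.41, adjusted p = 0.0737). Cd300lg, a receptor of capillary endothelium, lay at 10.59, 10.42 and 10.77 in sgp130Fc and at 9.07 and 9.60 in WT (1.26, adjusted p = 0.0737). These 3 lay higher in sgp130Fc, by 1.26 to 1.74.

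Lower in the same stretch were Ltb4r1, a leukotriene B4 receptor of leukocytes (-1.32, adjusted p = 0.109), and Cd300ld3, a myeloid receptor (-1.48, adjusted p = 0.0737; passing without IL6_KO replicate 2 at adjusted p = 0.028). Reln, an extracellular matrix glycoprotein made by lymphatic endothelium, lay at 4.62, 4.74 and 5.74 in sgp130Fc, above background on 1 array. In WT it lay at 8.72 and 7.13 (-2.89, adjusted p = 0.0902, or -3.68 without WT replicate 2). Insig2, which holds back sterol synthesis in the endoplasmic reticulum, lay at 8.33, 8.63 and 8.14 in sgp130Fc and at 9.67 and 9.66 in WT (-1.30, adjusted p = 0.0737). Its other probe did not follow (-0.08, adjusted p = 0.941). Lsm12, an RNA-binding protein gene, had 1 probe at -2.08 (adjusted p = 0.0589) and 3 further probes at -0.76, -0.57 and -0.48. The others of the 18 were Adat2 (-0.99), Spc25 (0.98), Lypd1 (1.99, passing without IL6_KO replicate 2 at adjusted p = 0.0221), Tmem252 (1.03), and the clock, glucocorticoid and Ccl21 genes given further on.

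By position, 5 of the 12 genes that passed lie on chromosome 1, namely Kansl1l, Per2, Mcm6, Ctse and Chil1. That is 5 of 505 genes tested there (0.99%), against 7 of 9294 elsewhere (0.0753%). With Insig2, Tnfrsf11a, Cxcr4 and Lypd1, 9 of the 30 genes with the smallest p lie on it, within chr1:66719243-134190031 (GRCm38.p6, from Kansl1l to Chil1), some higher and some lower in sgp130Fc. The 174 genes tested in this stretch had a median log2 difference of 0.03, with all sgp130Fc arrays above both WT arrays in 15.5% and below both in 14.4%, beside 13.8% and 15.8% of all genes tested. The place of the transgene in the genome is not given in the labels used here.

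The clock gene Per2 and a set of glucocorticoid-responsive genes lay higher in sgp130Fc fat. Per2 encodes a repressor of the circadian clock, and glucocorticoids, the adrenal hormones of waking and fasting, are known to induce it. Its gene also lies in the stretch of chromosome 1 given above. Per2 lay at 10.08, 10.33 and 10.32 on the sgp130Fc arrays, against 8.07 and 8.26 on the WT arrays, 4.22-fold higher (2.08 ± 0.22, SE; adjusted p = 0.0135). Its second probe lay at 9.42, 9.57 and 9.90 in sgp130Fc and at 7.53 and 7.72 in WT (2.00, adjusted p = 0.0152), so both probes gave the same separation. IL6_KO had 7.33, 7.93 and 7.33 on the first probe, lower than sgp130Fc by 2.71 (adjusted p = 0.000401). Against WT the first probe did not pass without sgp130Fc replicate 2 or 3 or without WT replicate 1 or 2 (1.98 to 2.18, adjusted p = 0.0668 to 0.103).

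Of 17 glucocorticoid-responsive genes tested, all 3 sgp130Fc arrays lay above both WT arrays in 12 and below both in 1, beside 13.8% and 15.8% of all genes. Both shares apply to every such count of a list below. Their median log2 difference was 0.69, beside -0.01 for all genes, and none passed against WT (10 had an unadjusted p under 0.05 and a positive difference and 1 a negative one, beside 4.53% and 4.04% of all genes). The mean log2 level of the 17 genes was 10.46, 10.55 and 10.61 on the sgp130Fc arrays and 9.87 and 9.89 on the WT arrays. On the IL6_KO arrays it was 9.38, 9.16 and 9.43, below WT.

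Ddit4 encodes REDD1, an inhibitor of mTOR signalling. It lay at 10.96, 10.95 and 11.15 in sgp130Fc and at 9.83 and 9.58 in WT (1.31, adjusted p = 0.0737), and passed without IL6_KO replicate 2 (adjusted p = 0.028). Fkbp5, a chaperone partner that damps the glucocorticoid receptor, lay at 9.35, 9.14 and 9.49 in sgp130Fc and at 8.13 and 8.34 in WT (1.09, adjusted p = 0.12). In both genes the sgp130Fc arrays lay about 1 log2 unit above WT with little spread. Tsc22d3 encodes GILZ, an anti-inflammatory protein, and lay at 12.94, 12.87 and 13.19 in sgp130Fc and at 12.26 and 11.87 in WT (0.93, adjusted p = 0.231). Lcn2, an iron-withholding lipocalin of the acute phase, lay at 10.13, 9.86 and 9.68 in sgp130Fc and at 6.84 and 8.58 in WT (2.18, adjusted p = 0.231). Without WT replicate 2, the higher of the WT arrays, the difference was 3.05. Pdk4, Per1, Dusp1, Errfi1, Sgk1, Klf9, Mt1 and Mt2 also lay above both WT arrays, and Cdkn1a, an inhibitor of the cell cycle, below both.

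Against IL6_KO, 7 of the 17 genes were higher in sgp130Fc and 0 lower, beside 1.25% of all probes called in either direction in this contrast. The list median was 1.06 here. Other lists lay higher as well, such as adipocyte (0.79), endothelial (0.85, 5 of 16 genes called higher) and erythroid genes (1.82, 3 of 5). Pan-macrophage (-0.39) and mast cell, eosinophil and basophil genes (-1.96) were among the lists that lay lower. A gap from IL6_KO was thus not particular to this list. Ddit4 differed by 2.94 (IL6_KO 8.30, 7.73 and 8.22; adjusted p = 0.000238), Fkbp5 by 2.46 (IL6_KO 7.10, 6.68 and 6.82; adjusted p = 0.000335) and Tsc22d3 by 1.58 (adjusted p = 0.00569). These calls held with each array left out, and like the other genes set against IL6_KO they were singled out after their values were seen. Lcn2 differed by 2.26 (adjusted p = 0.0372), and did not pass without IL6_KO replicate 1 or 2 or any 1 of the sgp130Fc replicates (2.14 to 2.45, adjusted p = 0.0794 to 0.16). Whether the hour of collection or handling moved with genotype was not tested.

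Clock genes other than Per2 lay on both sides of WT. Of 17 tested, Per2 passed, and 8 lay above and 4 below both WT arrays, beside 13.8% and 15.8% of all genes. Per1 counts both here and among the glucocorticoid-responsive genes. The list median was 0.30, or 0.16 without WT replicate 2. Among the 4 below was Npas2, which was below background on all 5 arrays, entered the test through IL6_KO arrays and has no measurable side. Above were mainly genes of the repressor side and the output factors. Ciart, a repressor of the clock activators, lay at 6.43, 6.13 and 6.18 in sgp130Fc and at 5.20 and 4.92 in WT, where 1 array was above background (1.19, adjusted p = 0.0589). Per1 lay at 10.14, 10.27 and 10.30 in sgp130Fc and at 9.70 and 8.94 in WT (0.92, adjusted p = 0.333), and was higher than in IL6_KO by 2.05 (adjusted p = 0.00298), also with each array left out. Per3 lay at 6.42, 5.92 and 5.39 in sgp130Fc and below background, at 4.87 and 4.99, in WT. Dbp and Tef, which bind D-box sequences, differed by 1.20 and 0.68 (adjusted p = 0.565 and 0.493), Nr1d2 by 0.95 (adjusted p = 0.579), and the clock kinase Csnk1e by 0.33 (adjusted p = 0.701).

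On the other side lay Arntl, which encodes the activator BMAL1. It had 6.21, 6.67 and 6.28 in sgp130Fc and 7.67 and 7.31 in WT (-1.10, adjusted p = 0.313). It was lower than in IL6_KO, where the arrays lay at 7.92, 7.45 and 8.26 (-1.49, adjusted p = 0.023), a call lost without IL6_KO replicate 1 or any 1 of the sgp130Fc replicates (-1.63 to -1.40, adjusted p = 0.0665 to 0.117). Nr1d1, which encodes the Arntl repressor REV-ERB alpha, had 7.35, 7.16 and 7.30 in sgp130Fc and 8.21 and 8.21 in WT (-0.94, adjusted p = 0.424). Bhlhe40, another repressor, differed by -0.57 (adjusted p = 0.586), and Npas2 had no measurable difference. Thus Per2, Per1 and Ciart lay above WT while Arntl and Nr1d1 lay below it.

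**Figure D2:**
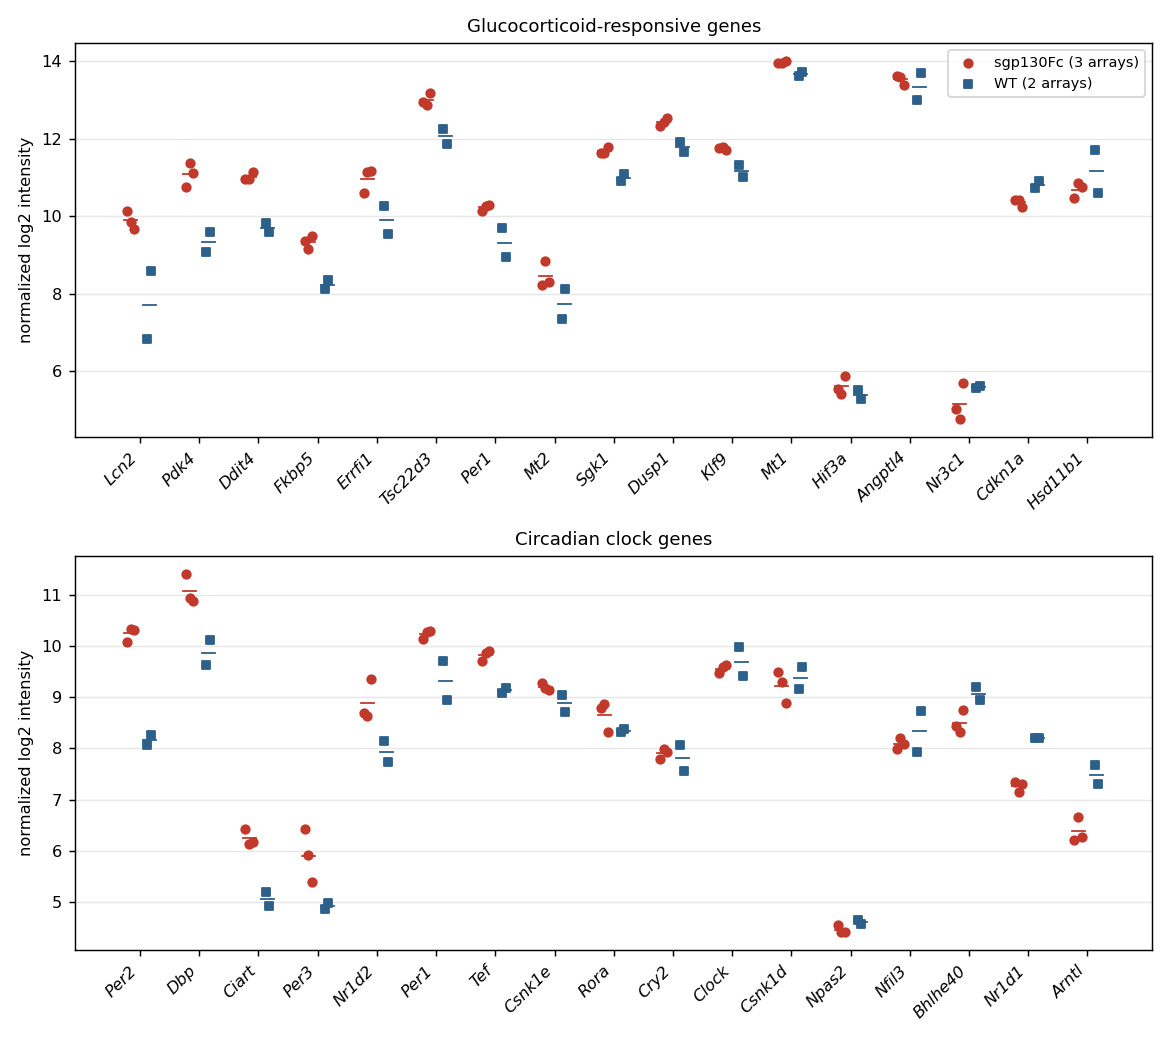
Normalized log2 intensity (y axis) of 17 glucocorticoid-responsive genes (top) and 17 circadian clock genes (bottom), ordered by log2 difference on the x axis. Red circles are the 3 sgp130Fc arrays, blue squares the 2 WT arrays and short lines the group means; 12 of the upper 17 genes and 8 of the lower 17 have all red circles above both blue squares.

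Clock activators bind the E-box CACGTG, and DBP and TEF bind the D-box TTATGTAA, so the promoters of the clock genes outside the WT range were searched for both. Promoters were taken from RefSeq (GRCm38.p6), from 250 bases before to 50 after each start, and both strands were read (the E-box is its own reverse complement, and the D-box reads TTACATAA on the other strand). Of the 12 genes, counted with Npas2, 10 had an entry, 16 windows in all. Ciart, Per1 and Tef held an E-box and Per3 held D-boxes; in these windows no E-box overlapped a D-box. Among all 32851 promoters 7.15% held an E-box, 0.0883% held 3 or more, 0.938% held a D-box and 0.0213% held 2 or more. These shares count single windows, whereas a clock gene was named if any of its windows held a match. The 4 windows are printed below, because these genes lay above both WT arrays and hold a match, with the motif in capitals; Ciart holds 3 E-boxes, Per1 and Tef 1 each, and Per3 2 D-boxes. Ciart lies at chr3:95882179-95882478 (minus strand), Per1 at chr11:69098699-69098998 (plus), Per3 at chr4:151044616-151044915 (minus) and Tef at chr15:81802423-81802722 (plus).
Ciart: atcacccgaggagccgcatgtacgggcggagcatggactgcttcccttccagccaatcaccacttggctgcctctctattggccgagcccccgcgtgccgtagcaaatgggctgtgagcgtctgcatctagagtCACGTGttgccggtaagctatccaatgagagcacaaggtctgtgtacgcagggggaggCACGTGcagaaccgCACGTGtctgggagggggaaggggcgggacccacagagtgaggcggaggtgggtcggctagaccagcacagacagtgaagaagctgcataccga
Per1: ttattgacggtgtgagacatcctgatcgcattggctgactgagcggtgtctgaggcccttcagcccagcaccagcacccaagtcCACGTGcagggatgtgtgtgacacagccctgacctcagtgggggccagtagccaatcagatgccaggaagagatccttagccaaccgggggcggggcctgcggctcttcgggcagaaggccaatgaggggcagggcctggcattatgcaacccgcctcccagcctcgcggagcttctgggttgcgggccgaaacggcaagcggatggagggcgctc
Per3: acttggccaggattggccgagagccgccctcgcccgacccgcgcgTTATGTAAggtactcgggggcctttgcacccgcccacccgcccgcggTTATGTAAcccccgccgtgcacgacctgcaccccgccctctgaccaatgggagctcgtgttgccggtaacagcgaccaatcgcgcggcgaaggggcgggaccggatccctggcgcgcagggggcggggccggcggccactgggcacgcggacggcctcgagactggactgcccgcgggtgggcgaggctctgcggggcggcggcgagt
Tef: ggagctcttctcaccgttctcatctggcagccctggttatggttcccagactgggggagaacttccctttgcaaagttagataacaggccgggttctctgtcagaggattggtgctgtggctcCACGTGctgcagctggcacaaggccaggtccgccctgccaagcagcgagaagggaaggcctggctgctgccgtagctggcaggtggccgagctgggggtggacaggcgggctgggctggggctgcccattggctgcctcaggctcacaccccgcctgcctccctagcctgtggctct
The second Tef window also held 1 E-box, and the second Per1 window none. The windows of Arntl, Nr1d1, Nr1d2, Dbp, Csnk1e and Npas2 held neither string, which says only that these letters are not in these windows.

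Genes of the IL-6 pathway showed small differences against WT, and none passed. Il6 was below background on all 5 arrays and has no measurable difference, though it counts in the list below. Its probe entered the test through IL6_KO arrays, at 5.17, 5.06 and 5.16, with 2 above background. What the probe reads there was not tested. Il6ra, the IL-6-binding chain, lay at 5.43, 6.16 and 5.16 in sgp130Fc and at 5.40 and 5.74 in WT, and Il6st, which encodes gp130, at 9.65, 9.91 and 9.64 in sgp130Fc and at 9.82 and 9.76 in WT. Adam17, the sheddase of IL-6R, lay at 8.51, 8.42 and 8.83 in sgp130Fc and at 8.54 and 8.27 in WT. In these 3 genes the groups overlapped (differences 0.02, -0.06 and 0.18). For Il6ra the sign turned without sgp130Fc replicate 2 (-0.27) or WT replicate 1 (-0.15). Over the 19 receptors and transducers tested, 1 lay above and 5 below both WT arrays (median -0.05), beside 13.8% and 15.8% of all genes.

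Downstream of the receptors act STAT3 and its targets. Socs3 lay at 6.70, 7.29 and 6.94 in sgp130Fc, against 7.67 and 8.09 in WT (-0.90 ± 0.22, SE; adjusted p = 0.333). The IL6_KO arrays lay at 8.21, 8.32 and 8.56, higher than sgp130Fc (-1.38, adjusted p = 0.0172), a call lost without IL6_KO replicate 1 or sgp130Fc replicate 1 or 3 (-1.46 to -1.25, adjusted p = 0.0624 to 0.0883). Stat3 itself lay at 10.62, 10.41 and 10.37 in sgp130Fc and at 10.81 and 10.97 in WT (-0.43, adjusted p = 0.521). Its other tested probes differed by -0.59 without overlap (adjusted p = 0.366) and by -0.29 with overlap (adjusted p = 0.867). Ctf1, a cytokine that signals through gp130, differed by -0.68 (adjusted p = 0.422) and Il27ra, a receptor chain that pairs with gp130, by -0.40 (adjusted p = 0.517), both below WT on every sgp130Fc array.

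Among 25 STAT3 target genes that respond to IL-6, 0 passed. In each direction 4 had an unadjusted p under 0.05, beside 4.53% higher and 4.04% lower of all genes. Of the 25, 4 lay above and 10 below both WT arrays, beside 13.8% and 15.8% of all genes, with a median of -0.24. The median was -0.04 without sgp130Fc replicate 1 and -0.15 without WT replicate 1. Lcn2 counts both here and among the glucocorticoid-responsive genes, and Socs3 both here and among the receptors and transducers. Besides Socs3, Cish, a SOCS family member, lay lower (-0.90, adjusted p = 0.582). Lcn2, given above, and the immediate early gene Fos (0.70, adjusted p = 0.494) lay higher, as did Saa3, an acute-phase gene of fat, whose arrays overlapped (11.67, 10.22 and 10.87 in sgp130Fc, 8.61 and 10.52 in WT; adjusted p = 0.596). The 10 below included Fgg (-1.80, adjusted p = 0.597), a fibrinogen chain known from liver, named after its value was seen. Liver genes lay low as well and are given further on, and their part in this count was not tested.

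Macrophage genes lay slightly above WT, and none of the broad markers passed. In whole tissue, a change in the number of cells and a change in RNA per cell cannot be told apart. Of 17 pan-macrophage genes, 13 lay above and 1 below both WT arrays (median 0.41), beside 13.8% and 15.8% of all genes. The mean log2 level of the list was 9.86, 9.84 and 10.13 in sgp130Fc, 10.32, 10.67 and 10.17 in IL6_KO, and 9.48 and 9.51 in WT. Their summed linear level was 55802 to 67060 in sgp130Fc and 48687 to 49481 in WT. Fcgr1, a high-affinity IgG receptor, lay at 7.28, 7.29 and 7.62 in sgp130Fc and at 6.16 and 6.55 in WT (1.04, adjusted p = 0.182). Ms4a7, a membrane protein of macrophages, lay at 11.01, 10.85 and 11.22 in sgp130Fc and at 10.08 and 10.06 in WT (0.95, adjusted p = 0.271). Cd14, the endotoxin co-receptor, differed by 0.77 (adjusted p = 0.268) and Adgre1, a surface receptor of macrophages, by 0.71 (adjusted p = 0.421). The exception was Cx3cr1, which lay below both WT arrays. Csf1r and Cd68 had no tested probe. The other tested Adgre1 probes differed by 0.74 without overlap (adjusted p = 0.494) and by 0.72 with overlap (adjusted p = 0.838).

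Related lists lay the same way, and their counts stand beside 13.8% above and 15.8% below for all genes. Of 13 Fc receptor and adaptor genes, 9 lay above and 0 below both WT arrays (median 0.46), among them Fcgr4 (0.99, adjusted p = 0.449), Fcgr3 (0.58, adjusted p = 0.597) and the kinase Btk (0.67, adjusted p = 0.604). Of 12 complement genes, 6 lay above and 0 below (median 0.38); the C1q chains C1qc, C1qa and C1qb differed by 0.67, 0.65 and 0.52 (adjusted p = 0.42 to 0.493) and Cfb by 0.56. Of 22 lysosomal genes, 13 lay above and 0 below (median 0.26, or 0.17 without WT replicate 1), among them Mitf (0.70), Npc2 (0.50) and the acid lipase Lipa (0.97). The Fc receptor list (Fcgr1, Fcgr3 and Fcer1g) and the lysosomal list (Ctss and Laptm5) share genes with the pan-macrophage list, and the complement list shares none. Of 13 integrin and adhesion genes, Itgad passed, 7 lay above and 3 below (median 0.32, or 0.18 and 0.17 without sgp130Fc replicates 1 and 3, and 0.10 with quantile normalization and no background correction). Vcam1, an adhesion receptor of activated endothelium, differed by 1.19 (adjusted p = 0.271) and Itgb7, a chain of gut-homing lymphocytes, by -1.11 (adjusted p = 0.433).

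Markers of other macrophage states did not move together. Itgax, which encodes CD11c, lay at 7.28, 6.98 and 7.74 in sgp130Fc and at 7.28 and 7.86 in WT (-0.23, adjusted p = 0.89; 0.06 without WT replicate 2). Ccl2, the monocyte attractant, lay at 7.60, 7.61 and 7.72 in sgp130Fc and at 7.99 and 8.44 in WT (-0.58, adjusted p = 0.741), and Tnf at 4.87, 4.83 and 5.23 in sgp130Fc, above background on 1 array, and at 5.46 and 5.48 in WT (adjusted p = 0.63). Both lay below WT. Of 17 resident macrophage genes, Cd163l1 fell, and 4 lay above and 3 below, beside 13.8% and 15.8% of all genes. The list median was -0.20, but 0.12 without WT replicate 1 and -0.53 without WT replicate 2. Cd163, a haemoglobin scavenger that glucocorticoids induce, lay at 9.96, 9.98 and 10.38 in sgp130Fc and at 9.13 and 8.51 in WT (1.29, adjusted p = 0.456). It was higher than in IL6_KO (7.40, 6.49 and 8.05) by 2.80 (adjusted p = 0.0111), a call lost without any 1 of the sgp130Fc replicates (2.66 to 2.87, adjusted p = 0.0507 to 0.077). Clec10a, a lectin of these cells, differed by 0.64 (adjusted p = 0.494). Cd209d, another lectin, lay at 7.65, 6.92 and 7.51 in sgp130Fc and at 8.68 and 8.03 in WT (adjusted p = 0.482).

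No gene of liver, lymph node stroma, T and NK cells or mast cells passed against WT. Of 9 liver genes, 8 lay below and 0 above both WT arrays (median -2.00, or -1.13 without WT replicate 1). Apoa2, an apolipoprotein of high-density lipoprotein, lay at 5.48, 6.86 and 6.12 in sgp130Fc and at 10.44 and 8.17 in WT (-3.15, adjusted p = 0.417). On the IL6_KO arrays it lay at 9.86, 9.73 and 12.40, higher than sgp130Fc (-4.51, adjusted p = 0.0341), a call lost without IL6_KO replicate 1 or any 1 of the sgp130Fc replicates (-4.91 to -4.17, adjusted p = 0.078 to 0.149). Ambp, Ttr and Apoa1, all secreted by hepatocytes, differed from WT by -2.62, -2.70 and -2.84 (adjusted p = 0.47 to 0.486). Apoa1 was above background on 1 sgp130Fc array only. The summed linear level of the 9 genes was 2082 to 4639 in sgp130Fc and 2424 to 11267 in WT, Cyp2e1, whose arrays overlapped, included, and Alb, which encodes albumin, was below background on all 5 arrays. The part of liver genes in the results above was not tested.

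Chemokines of lymph node stroma lay low as well. The near-identical copies Ccl21a, Ccl21b and Ccl21c, which draw T cells and dendritic cells into lymphatics and lymph nodes, cannot be told apart with certainty. The Ccl21a probe lay at 5.25, 5.78 and 7.33 in sgp130Fc and at 11.46 and 9.95 in WT (-4.58 ± 0.70, SE; adjusted p = 0.0737). The Ccl21b probe differed by -4.04 (adjusted p = 0.0737) and the Ccl21c probe by -4.68 (adjusted p = 0.0615), and the Ccl21c probe passed without IL6_KO replicate 2 (adjusted p = 0.0397). In sgp130Fc the Ccl21c probe was above background on 1 array only, so the size of its difference is partly set by background. On the IL6_KO arrays the Ccl21a probe lay at 8.11, 6.35 and 7.25, between the other groups' means. Ccl19, which binds the same receptor, differed by -1.23 (adjusted p = 0.271). Of 7 lymph node stroma genes 5 lay below and 0 above both WT arrays (median -1.23), with a summed level of 352 to 650 in sgp130Fc and 2633 to 6685 in WT. The Ccl21 copies are among these 5 and may count 1 signal several times, in the median and the sum as well. Besides them Ccl19 and Il7 (-0.47) lay below, while Cxcl13 (-0.63) and Tnfsf11 (-0.10) overlapped.

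Of 13 T and NK cell genes, 1 lay above and 2 below both WT arrays, beside 13.8% and 15.8% of all genes, and the median was -0.60. That median moved with single arrays: it was -0.17 and -1.35 without WT replicates 1 and 2, and -0.33 and -0.93 without sgp130Fc replicates 1 and 3. Lat, Cd3g and Cd2, of T cell receptor signalling and adhesion, differed by -1.60, -1.68 and -1.19 (adjusted p = 0.456 to 0.562), with overlapping arrays in Cd3g. The summed level of the list was 1574 to 2793 in sgp130Fc and 1591 to 3161 in WT, and the B cell markers Cd79a and Ms4a1 were below background on all 5 arrays.

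Of 8 mast cell, eosinophil and basophil genes, 6 lay below and 1 above both WT arrays (median -0.74, or -0.46 without sgp130Fc replicate 2), with a summed level of 549 to 933 in sgp130Fc and 1158 to 1370 in WT. Mcpt4, a mast cell chymase, lay at 7.17, 4.94 and 6.60 in sgp130Fc and at 7.56 and 8.16 in WT (-1.62, adjusted p = 0.548). Cma1, another chymase, lay at 6.70, 5.34 and 6.27 in sgp130Fc and at 7.21 and 7.64 in WT (-1.32, adjusted p = 0.548). The tryptase Tpsb2 differed by -0.95 (adjusted p = 0.571). Against IL6_KO these 3 were lower by more: Mcpt4 differed by -3.38 (adjusted p = 0.0266), Cma1 by -3.05 (adjusted p = 0.0181) and Tpsb2 by -2.28 (adjusted p = 0.0197). Each of these calls was lost without sgp130Fc replicate 2 or 3 or IL6_KO replicate 1, that of Tpsb2 also without sgp130Fc replicate 1 and that of Mcpt4 also without IL6_KO replicate 2 (adjusted p = 0.0572 to 0.113). Whether the size of the difference from WT and that from IL6_KO differ was not tested.

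**Figure D3:**
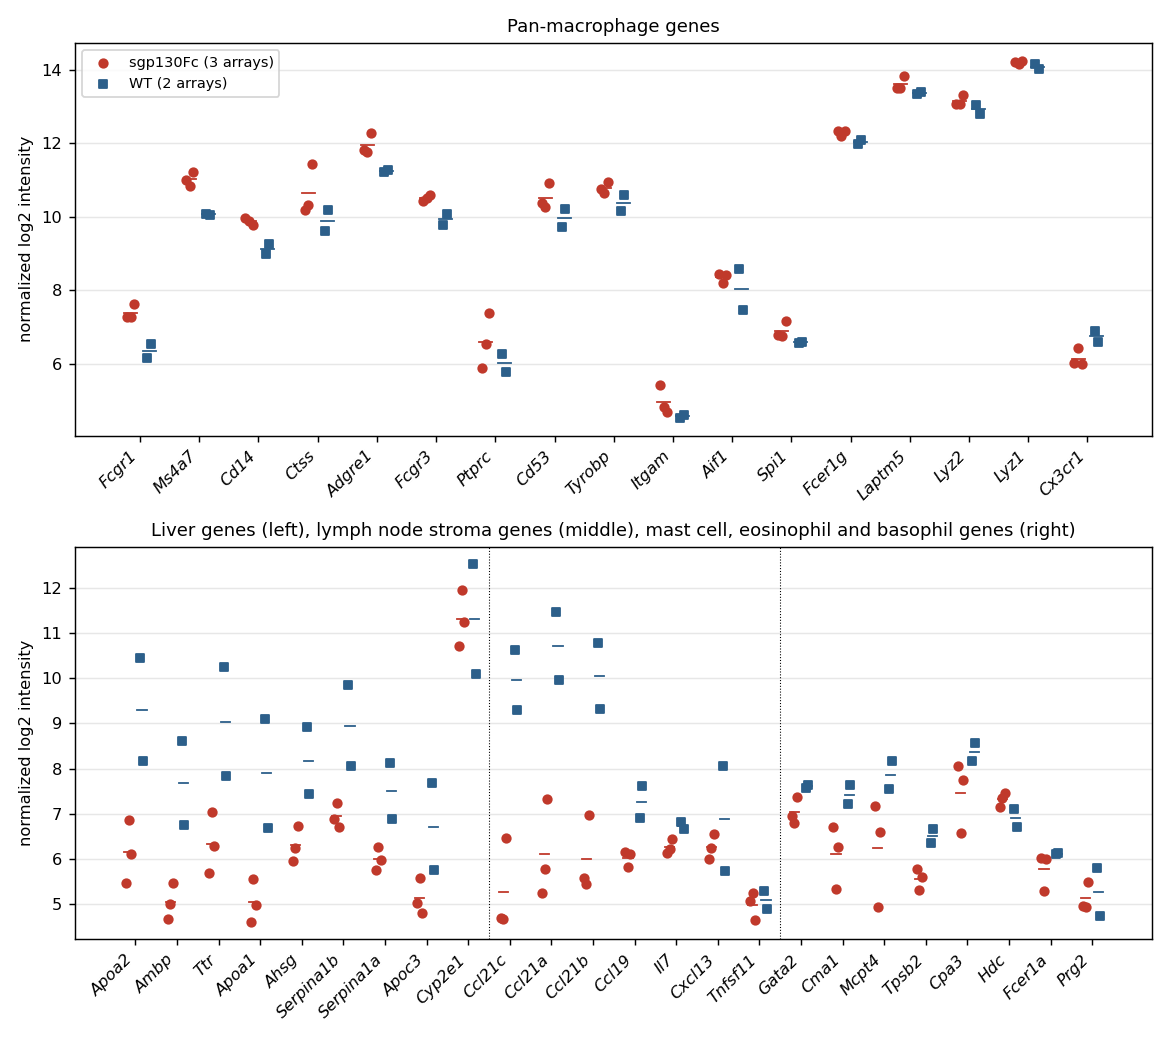
Normalized log2 intensity (y axis) of 17 pan-macrophage genes (top) and of liver, lymph node stroma, and mast cell, eosinophil and basophil genes (bottom), by gene (x axis). Red circles are the 3 sgp130Fc arrays, blue squares the 2 WT arrays and short lines the group means; in the top panel 13 of 17 genes have all circles above both squares, and in the bottom panel the squares of the liver genes lie far apart, as in Apoa2 at 10.44 and 8.17.

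Fat cell genes lay slightly below WT. Of 20 adipocyte genes, 9 lay below and 1 above both WT arrays (median -0.21), with a summed level of 108295 to 121503 in sgp130Fc and 127334 to 131711 in WT. Retn, which encodes resistin, lay at 5.64, 5.26 and 5.61 in sgp130Fc and at 7.28 and 6.80 in WT (-1.54 ± 0.30, SE; adjusted p = 0.183). Slc2a4, the insulin-responsive glucose transporter, lay at 8.22, 8.44 and 7.60 in sgp130Fc and at 8.92 and 8.56 in WT (-0.65, adjusted p = 0.712). The nuclear receptor Pparg overlapped between the groups (-0.26, adjusted p = 0.852). Differences were -0.24 for Adipoq (adjusted p = 0.891) and -0.07 for Lep (adjusted p = 0.971). Among 21 lipogenesis genes 7 lay below and 2 above, beside 15.8% and 13.8% of all genes. The list median was -0.15, but -0.02 without WT replicate 2 and -0.23 and -0.25 without sgp130Fc replicate 1 and WT replicate 1. Fasn, fatty acid synthase, lay at 8.05, 8.07 and 7.81 in sgp130Fc and at 8.42 and 8.75 in WT (-0.61, adjusted p = 0.687), and its regulator Srebf1 differed by -0.41 (adjusted p = 0.687).

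Genes of interferon and of the endoplasmic reticulum had small positive medians. Of 20 interferon-stimulated genes, Gbp2b fell, and 5 lay above and 2 below both WT arrays (median 0.25), beside 13.8% and 15.8% of all genes. The median was 0.07 without sgp130Fc replicate 2, 0.54 without WT replicate 1 and -0.03 without WT replicate 2. Oas2, an antiviral synthetase, differed by 1.19 (adjusted p = 0.42), Oasl2 by 0.83 (adjusted p = 0.517) and Ifit3 by 0.79 (adjusted p = 0.493). Of 18 endoplasmic reticulum stress genes, 5 lay above and 1 below, beside the same shares of all genes (median 0.19, or 0.12 without WT replicate 1). Hspa5, the chaperone BiP, lay at 7.44, 8.32 and 8.49 in sgp130Fc and at 7.06 and 7.12 in WT (0.99, adjusted p = 0.424), and the lumenal chaperone Hsp90b1 differed by 0.86 with overlapping arrays (adjusted p = 0.579). Neither list held a gene that passed as higher.

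**Figure D4:**
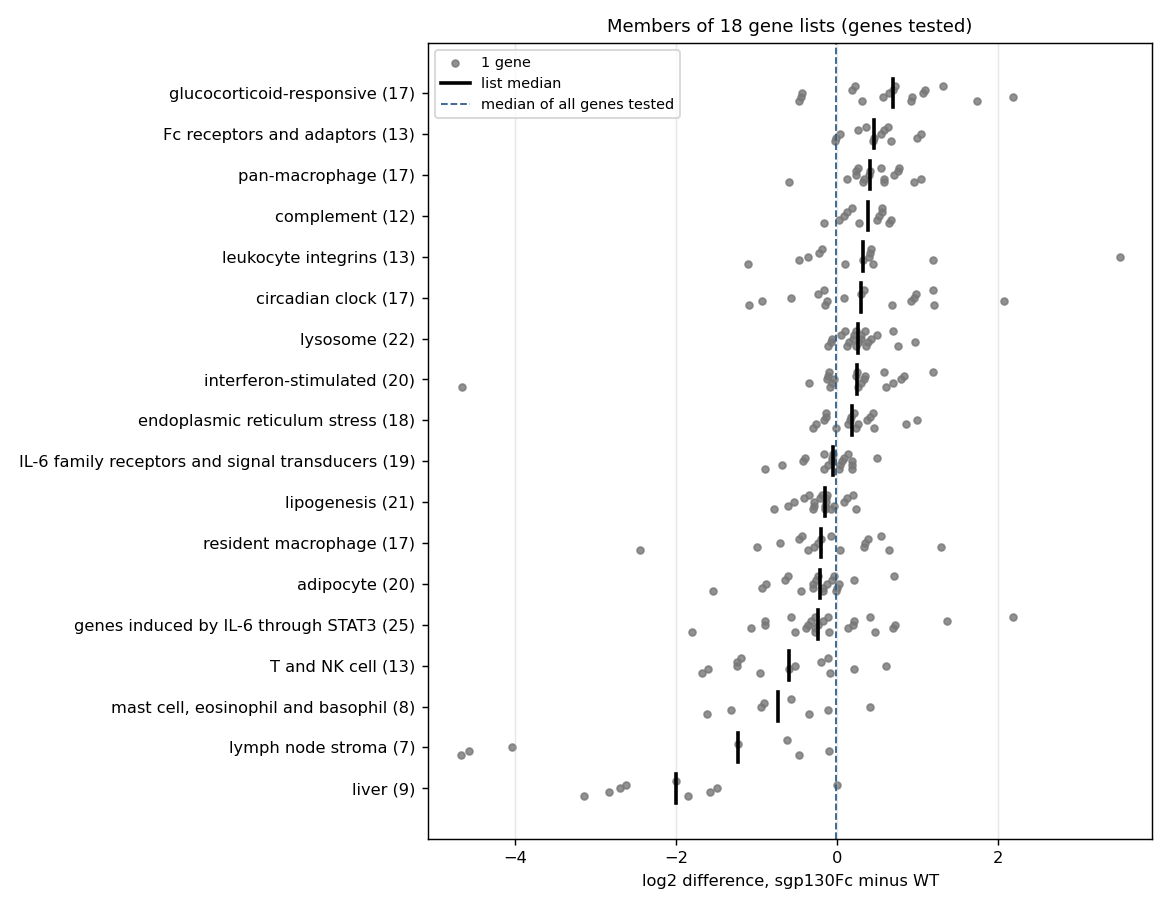
Log2 difference, sgp130Fc minus WT (x axis), of each gene tested in 18 lists (y axis, number of genes in brackets), with the list median as a black bar and the median of all genes, -0.01, as a dashed line. The glucocorticoid-responsive median of 0.69 lies farthest right and the liver median of -2.00 farthest left.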

How the data were processed

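RNA of 8 adipose samples was hybridised to Illumina bead arrays, 1 sample each. The authors deposited linear probe intensity for 25697 probes, not normalized, with detection p-values against the negative controls of the array, per the file headers. They also deposited normalized log2 values, which were used here; GenomeStudio and limma are named without versions, per the submitters' processing notes. Normalizing the intensities anew with neqc of limma 3.58.1 (R 4.3.3, offset 16) came within 0.0548 of the deposited log2 values. Samples were grouped by title.

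With lmFit and eBayes, 1 mean per group (3 groups) was estimated from the 8 arrays together. It gave two-sided tests of sgp130Fc minus WT and sgp130Fc minus IL6_KO, adjusted over 14141 probes with a threshold of 0.05. Symbols came from the array annotation (1719 probes had none), matched by gene identifier to RefSeq (23962 probes). A list's gene is represented by its brightest tested probe, a passing gene by its passing probe with the smallest p. Where no array of a group was above background, the fold was counted against the detection limit and given as "at least". The script was tested on simulated data.

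The comparison and the 49 gene lists were chosen with earlier results of these data known, and the 18 lists described were picked after their values were seen. Named genes are the pathway genes Il6, Il6ra, Il6st, Adam10, Adam17, Stat3 and Socs3, the 30 with the smallest p, up to 4 members of smallest p per list, a fixed set (Adgre1, Itgax, Ccl2, Tnf, Saa3, Lep, Adipoq, Slc2a4, Fasn, Pparg, Ucp1) and clock genes outside the WT range; other list members, and the genes set against IL6_KO beyond the 12 that passed, were named after their values were seen. Adam10 and Ucp1 had no tested probe. Alternatives were other normalizations, other detection filters, the 5 arrays alone, an intensity trend, array weights, the replicate number as a block, the mean of a gene's probes, and leaving out each array.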

Additional observations from a re-analysis of the deposited data

How the results depend on the processing

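Mcm6 and Gdpd3 passed under every alternative that tested them (16 of 16 and 17 of 17), and the direction of the 12 genes that passed held in all. The 7 higher and 6 lower probes became 4 and 4 with quantile normalization and no background correction, 3 and 3 when undetected probes were kept, 2 and 3 with detection on all 8 arrays, 10 and 10 with an intensity trend, and 14 and 14 with array weights, whose fit gave a convergence warning. They were 9 and 4 in a fit of the 5 arrays alone. Some genes that did not pass in the main fit passed in these. Ddit4 did without background correction (adjusted p = 0.0438) and with the intensity trend (0.0419). Ciart did with scaling to the 75th percentile (0.0362), and Tnfrsf11a (0.0383) and Lypd1 (0.0433) in the fit of the 5 arrays. Lsm12, Ccl21c, Ccl21a, Insig2 and Cd300lg did with the intensity trend (0.0419 to 0.0466). Array weights added calls too. Leaving out 1 array gave 1 to 13 higher and 2 to 8 lower. With the replicate number as a block 2 and 3 passed, and Ctse, Kansl1l, Gbp2b, Dusp4, Cd163l1, Il13ra2 and Itgad did not (adjusted p = 0.0563 to 0.213). Against IL6_KO, Lcn2, Arntl, Cma1, Mcpt4, Tpsb2 and Apoa2 lost the call when undetected probes were kept (adjusted p = 0.0608 to 0.113), Apoa2 also without background correction (0.0741), and Dusp4, Lcn2, Arntl, Mcpt4 and Apoa2 with the block (0.0587 to 0.0697). For same-numbered samples of the 2 groups, deviations from the group mean correlated at -0.353 and 0.138. With 2 WT arrays the WT deviations mirror each other, so this cannot decide whether the numbers mark pairs. Il6ra reversed without sgp130Fc replicate 2 (-0.27) and WT replicate 1 (-0.15), and ranged from -0.27 to 0.23 over the arrays left out. Itgax reversed without WT replicate 2 and ranged from -0.52 to 0.06. Gbp2b against IL6_KO, below background on all IL6_KO arrays and on 2 of 3 sgp130Fc arrays, has no measurable difference: its fitted value of 0.04 became -0.02 without background correction and -0.11 with array weights, and ranged from -0.20 to 0.16 over the arrays left out. The lymph node stroma median was -0.63 without background correction and -2.64 with detection on all 8 arrays, the mast cell list's -0.36 and the complement median 0.21 without background correction, and the adipocyte median -0.36 with the replicate block. Without background correction the medians of STAT3 targets (-0.11), interferon-stimulated (0.16), liver (-1.27), resident macrophage (-0.12) and T and NK cell genes (-0.32) were smaller in size too. With detection on all 8 arrays, those of STAT3 targets (-0.15), integrins (0.10), resident macrophage (-0.08) and T and NK cell genes (-0.36) were. The integrin median was 0.17 when a gene's tested probes were averaged, and the lipogenesis median -0.24 with the block. The cause of these changes was not tested. With 2 WT arrays, each WT value carries much of every difference. A fit that leaves out 1 of them has no spread within WT, so its calls rest on the spread of the other groups.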

Other observations

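Of the 49 lists, 24 had a positive and 22 a negative median log2 difference of sgp130Fc minus WT. The lymphatic endothelial list had a median of -1.54 over 4 genes, but -0.20 with detection on all 8 arrays and -0.80 without background correction. In it Ccl21a and Reln lay below both WT arrays, while Lyve1 (-0.20) and Pdpn (-0.05) overlapped. Brown and beige fat genes had a median of -0.29 over 7, or -0.08 with detection on all 8 arrays. Erythroid genes had one of -0.27 over 5, where all 5 overlapped, and it was -0.04 and -0.52 without WT replicates 1 and 2. Mesothelial genes had a median of 0.23 over 11, but -0.46 without WT replicate 2 and 0.73 without WT replicate 1. Of 19 lipid-associated macrophage genes 4 lay above and 0 below both WT arrays (median 0.33, but 0.09 without WT replicate 1). Of 20 matrix protease and inhibitor genes 8 lay above and 3 below (median 0.24, or 0.14 without WT replicate 1), and Ctse was the 1 that passed. Of 24 respiratory chain genes 9 lay below and 1 above (median -0.13, or -0.05 without WT replicate 1), and Timmdc1 was the 1 that passed. The genes named here were chosen after their values were seen.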
